A study of Mus musculus with 29 samples.

Results

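The levels of 10 imprinted genes were followed through megakaryocyte-erythrocyte progenitors (MEPs), progenitors of platelets and red cells: Peg10, Plagl1, Igf2, H19, Dlk1, Meg3, Peg3, Mest, Grb10 and Igf2r. They were a fixed list, found by matching the Entrez identifier of each row in the count files to a RefSeq gene symbol. This list and the other gene lists below were chosen with earlier results of these data known. Their shares of called genes, set beside those of all genes, are therefore descriptive. All 10 were among the 18834 genes in the files. Of these, 7 passed the low-count filter and were tested with 13928 genes in all. Igf2, H19 and Peg3 did not pass it and are described by their counts.

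The series held 29 RNA-seq libraries of mouse MEPs in 6 genotypes. Every group carried the SclCre transgene (also written ScleCre), a Cre recombinase driven from the Scl gene, and this includes the controls. The V617F Ezh2 -/- group (SclCre, JAK2 V617F, no Ezh2 allele) held 6 libraries, all from females. The V617F Ezh2 +/- group (SclCre, JAK2 V617F, 1 Ezh2 allele) held 6 libraries, all from females. The V617F group (SclCre, JAK2 V617F, Ezh2 +/+) held 4 libraries, 1 male and 3 female. Without V617F there were 4 Ezh2 -/- libraries (1 male, 3 female) and 4 Ezh2 +/- libraries (2 male, 2 female). The control group (SclCre, Ezh2 +/+) held 5 libraries, 2 male and 3 female. JAK2 V617F is an activating kinase mutation found in myeloproliferative neoplasms, and Ezh2 is the catalytic subunit of Polycomb repressive complex 2 (PRC2). The sources used here state neither ages nor sorting gates. The labels call the libraries replicates and do not say whether each came from a separate mouse, so the p-values measure the spread among these libraries, which may be technical.

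An imprinted gene is transcribed mainly from the allele inherited from a single parent, and the choice is set by DNA methylation laid down in the germ line. Some imprinted genes also carry the repressive histone methylation that PRC2 deposits. Many of them control fetal and placental growth, and several fall to low levels in most tissues after birth. Igf2, a growth factor, is expressed from the paternal allele in the mouse, while Igf2r, the receptor that clears it, is expressed from the maternal allele. The deposited counts do not separate parental alleles, so the values below are totals over both.

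The promoters of Plagl1 and Dlk1, which reached their highest levels in V617F Ezh2 -/- MEPs, and of Grb10, which rose without Ezh2 in both backgrounds, are shown here with their CpG dinucleotides, the sites at which imprints are methylated. Grb10 has 2 promoters in the table, and the first is shown. Each runs from 250 bases before to 50 bases after an annotated start in RefSeq (build GRCm38.p6), is written 5′ to 3′ on the gene's strand, and has its CpGs in capitals.
Plagl1, chr10:13090582-13090881, plus strand: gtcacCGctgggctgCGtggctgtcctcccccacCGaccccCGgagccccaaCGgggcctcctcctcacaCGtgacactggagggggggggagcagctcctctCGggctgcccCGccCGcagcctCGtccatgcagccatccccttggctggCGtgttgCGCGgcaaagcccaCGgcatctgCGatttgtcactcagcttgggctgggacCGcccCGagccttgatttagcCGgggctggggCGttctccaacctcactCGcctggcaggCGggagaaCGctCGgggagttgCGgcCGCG
Grb10, chr11:12037371-12037670, minus strand: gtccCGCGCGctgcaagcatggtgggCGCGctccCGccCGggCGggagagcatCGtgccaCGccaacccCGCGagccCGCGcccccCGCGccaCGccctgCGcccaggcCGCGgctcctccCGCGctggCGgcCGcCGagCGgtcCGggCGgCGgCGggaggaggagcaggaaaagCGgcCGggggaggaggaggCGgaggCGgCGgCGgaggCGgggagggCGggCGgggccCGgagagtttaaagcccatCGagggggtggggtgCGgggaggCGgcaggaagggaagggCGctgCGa
Dlk1, chr12:109452573-109452872, plus strand: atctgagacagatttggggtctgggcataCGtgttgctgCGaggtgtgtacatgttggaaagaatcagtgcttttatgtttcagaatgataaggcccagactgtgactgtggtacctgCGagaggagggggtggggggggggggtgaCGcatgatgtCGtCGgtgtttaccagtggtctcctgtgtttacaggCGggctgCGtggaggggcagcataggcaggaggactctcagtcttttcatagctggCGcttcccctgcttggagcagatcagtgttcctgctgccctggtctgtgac
The Grb10 promoter shown holds 45 CpGs, a number reached by 1.93% of the 32851 RefSeq mouse promoters of this length, while its other promoter (chr11:12027922-12028221) holds 9, reached by 45.8%. The Plagl1 promoter holds 26 CpGs, reached by 16.9% of promoters. The Dlk1 promoter also holds 9 CpGs, where the median promoter holds 7. The table held 15 promoters for 8 of the 10 genes. The palindrome GGGGCCCC, a form of the site bound by the Plagl1 protein, occurs in 1.08% of promoters, and among the 15 it was found in Peg3 alone. A match is a string in this window, and methylation and binding were not measured here.

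Library size ranged from 31.6 to 59.4 M counts (median 44.7 M). Levels are in CPM, the count scaled to the library size after correction by the trimmed mean of M values (TMM). A count of 3, the lowest treated as readable, equals 0.0496 to 0.0946 CPM in a single library, for counting error only. Ezh2 followed the labels: it lay between 51.2 and 59.5 CPM in V617F Ezh2 -/-, 148 and 205 in V617F Ezh2 +/-, 244 and 313 in V617F, 67.9 and 79.5 in Ezh2 -/-, 188 and 197 in Ezh2 +/-, and 269 and 319 in control libraries. Which part of Ezh2 was deleted is not stated in the sources used here. The 18 erythroid markers summed to 6189 to 12100 CPM in every library, and none was at 0 in any group. Markers of other blood cells varied between libraries. Control replicate 5 and Ezh2 +/- replicates 2 and 5 stood apart among those without V617F, with 259, 172 and 222 summed CPM over 16 T and NK cell markers. Calls of the 10 genes that were lost or gained without them, and the counts of the gene lists in Ezh2 -/- against control, are given with and without them. In bulk RNA, fewer cells of a type and less RNA per cell cannot be told apart.

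Per kilobase of transcript, the 10 genes spanned a wide range in MEPs. In control libraries Grb10 averaged 39.8 ± 5.2 CPM per kb, Igf2r 11.9 ± 1.5 and Peg10 0.57 ± 0.18 (SD, n = 5), and no library of one of these 3 overlapped another. Below them came Meg3 at 0.0229 ± 0.0296, Mest at 0.0224 ± 0.0200, Plagl1 at 0.0165 ± 0.0119 and Dlk1 at 0.0160 ± 0.0179 CPM per kb. Igf2 (0.00850 ± 0.00902), H19 (0.00267 ± 0.00366) and Peg3 (0.00135 ± 0.00189 CPM per kb) came last, and each neighbour in this order from Meg3 down overlapped the next. In V617F Ezh2 -/- libraries the order of the leading genes was the same, at 45.9 ± 1.61 CPM per kb for Grb10, 10.8 ± 1.21 for Igf2r and 3.83 ± 0.730 for Peg10 (SD, n = 6). Plagl1 was next there at 0.433 ± 0.134 CPM per kb, with no library in the range of the genes below it. Mest (0.0988 ± 0.0296), Dlk1 (0.0922 ± 0.0174), H19 (0.0699 ± 0.0437), Meg3 (0.0317 ± 0.00949), Igf2 (0.0134 ± 0.00911) and Peg3 (0.00457 ± 0.00253 CPM per kb) followed, each overlapping its neighbour.

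Loss of both Ezh2 alleles without V617F was compared first. Peg10, Mest, Grb10 and Igf2r rose, and none of the 10 genes fell. These 4 of 10, with 7 tested, compare with 11.5% of all tested genes called higher, and 23.7% called in either direction, in edgeR's quasi-likelihood test (p adjusted over 13928 genes by Benjamini-Hochberg). Calls use an adjusted p under 0.05 and all tests are two-sided. The median log2 fold change of the 7 was 0.67, beside -0.01 over all tested genes. With the 3 libraries rich in T and NK cell markers left out, Peg10 and Grb10 passed, 2 of the 10, beside 9.5% of genes called higher. Mest passed the filter mainly through the Ezh2 -/- groups, so its place among the tested genes is not independent of its change.

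Peg10, a gene derived from a retrotransposon and needed for placental development, showed the clearest difference. It stood at 34.3, 26.3, 31.4 and 41.5 CPM in the Ezh2 -/- libraries, against 2.62, 2.88, 5.67, 3.75 and 4.02 CPM in control libraries. Every Ezh2 -/- library lay far above every control library. Its log2 fold change was 3.14 ± 0.22 (SE, edgeR, adjusted p = 5.16e-11), and it passed the test under all 17 other settings and omitted libraries, at 2.76 to 3.29.

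Grb10, an adaptor that restrains insulin and IGF receptor signalling, was abundant throughout and rose modestly. It stood at 280.0, 273, 277 and 337 CPM in Ezh2 -/- libraries, against 209.9, 222, 226, 209.9 and 159 CPM in control libraries. The groups did not overlap, although Ezh2 -/- replicate 4 was high and control replicate 5 low for its group. The log2 fold change was 0.53 ± 0.08 (SE, edgeR, adjusted p = 1.89e-05), and it passed in all 17 alternatives.

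Igf2r, the mannose 6-phosphate receptor that carries IGF2 to the lysosome, stood at 139, 131, 129.6 and 135 CPM in Ezh2 -/- libraries, against 114, 116, 114, 101 and 84.8 CPM in control libraries. The lowest Ezh2 -/- library was above the highest control library, by a small margin. The log2 fold change of 0.36 ± 0.12 (SE) passed the test (edgeR, adjusted p = 0.0248). The call was lost in 5 of 17 alternatives: without control replicate 5 it was 0.31 (adjusted p = 0.0645), without Ezh2 -/- replicate 1 it was 0.33 (0.0693), without the 3 libraries rich in T and NK cell markers it was 0.32 (0.0604), and fits without the sex term or on females alone gave adjusted p = 0.0506 and 0.0826. Airn, the antisense RNA that overlaps Igf2r, stood at 2.03 ± 0.383 CPM in Ezh2 -/- (SD, n = 4) and 1.64 ± 0.367 CPM in control libraries (SD, n = 5). The sources used here do not state whether counting used strand, so reads shared by such pairs cannot be told apart.

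Mest, which encodes a membrane enzyme of the alpha/beta hydrolase fold and is paternally expressed, was low everywhere. It had 12, 8, 13 and 17 counts in Ezh2 -/- libraries, equal to 0.244, 0.165, 0.238 and 0.365 CPM. Control libraries held 1, 1, 7, 4 and 1 counts, equal to 0.0262, 0.0227, 0.128, 0.117 and 0.0165 CPM. The groups did not overlap, and 3 of the 5 control libraries held a single read. The log2 fold change was 2.01 ± 0.57 (SE, edgeR, adjusted p = 0.0124). The call was lost in 3 of 16 alternatives: 1.51 without Ezh2 -/- replicate 4 (adjusted p = 0.0856), 1.72 without the 3 libraries rich in T and NK cell markers (0.0502), and 1.34 in females alone (0.162). Copg2, which overlaps Mest on the other strand, stood at 90.5 ± 3.91 CPM in Ezh2 -/- (SD, n = 4) and 86.3 ± 2.93 CPM in control libraries (SD, n = 5).

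**Figure D1:**
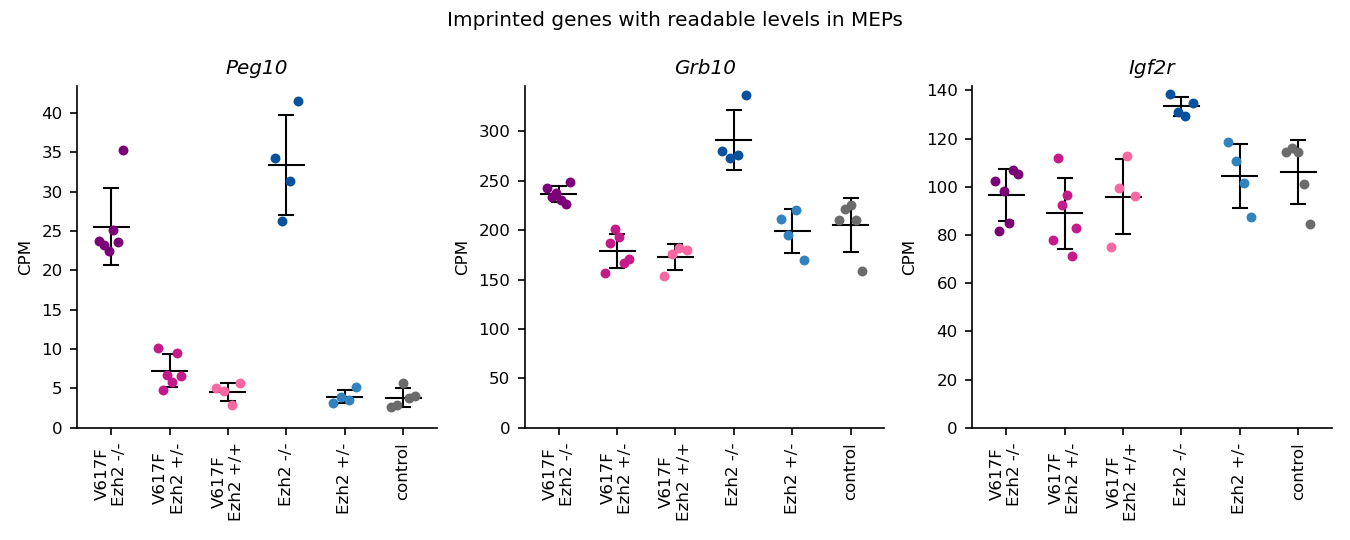
CPM of Peg10, Grb10 and Igf2r (y axes, from 0) in each of the 29 libraries, by genotype; points are libraries, lines the mean and bars the SD. Peg10 lies at 22.4 to 41.5 CPM in both Ezh2 -/- groups and at 10.2 CPM or less elsewhere, while Igf2r is highest in Ezh2 -/- without V617F.

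Markers of other cells also moved between these groups, where 12.2% of all tested genes were lower and 11.5% higher. The 16 monocyte, macrophage and dendritic markers summed to 61.3 to 102 CPM in Ezh2 -/- and 156 to 503 CPM in control libraries, with no overlap, and 5 of 15 tested were lower. The 16 T and NK cell markers summed to 73.6 to 137 CPM in Ezh2 -/- and 77.3 to 259 CPM in control libraries, and 6 of 16 were lower. Megakaryocyte and platelet markers summed to 116 to 169 CPM in Ezh2 -/- and 146 to 524 CPM in control libraries, with 5 of 18 lower and a median log2 fold change of -1.05. Stem and multipotent progenitor markers summed to 630.1 to 779 CPM in Ezh2 -/- and 774 to 862 CPM in control libraries, with 4 of 16 lower, 1 higher and a median of -0.99. No T, NK, monocyte, macrophage or dendritic marker was at 0 counts in a whole group. Without the 3 libraries rich in T and NK cell markers, 3 of 15 monocyte, 2 of 16 T and NK, 1 of 18 megakaryocyte and 1 of 16 stem cell markers were lower. In that fit 15.6% of all genes tested were called in either direction. The part of these cells in the 4 rises was not tested.

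Plagl1, Dlk1 and Meg3 did not pass the test in this comparison. Plagl1, a zinc finger transcription factor that regulates other imprinted genes, had 15, 9, 3 and 18 counts in Ezh2 -/- libraries, against 5, 2, 6, 0 and 9 in control libraries. The groups overlapped, and the log2 fold change of 1.30 ± 0.62 (SE) had an adjusted p of 0.126 in edgeR. Dlk1, a transmembrane protein with EGF-like repeats related to NOTCH ligands, gave 0.67 ± 0.68 on the log2 scale (SE, edgeR, adjusted p = 0.495). Meg3 is a long noncoding RNA made from the maternal allele of the same cluster as Dlk1.

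Meg3 varied widely between libraries of a group. It had 0.0407, 0, 0.0549 and 0.258 CPM in Ezh2 -/- libraries, against 0.157, 0.0907, 0.165, 0.0878 and 0.975 CPM in control libraries. Control replicate 5 held 59 counts, where the other controls held 3 to 9. Ezh2 +/- replicates 2 and 5 were also high, at 0.633 and 0.488 CPM, where the other Ezh2 +/- libraries held 0.199 and 0.0526 CPM. These 3 libraries are those with the highest T and NK cell marker sums among the groups without V617F, and they also held 329.9, 331 and 213 summed CPM of granulocyte markers, where no other library of those groups exceeded 103. The log2 fold change of Ezh2 -/- against control was -1.65 ± 0.83 (SE, edgeR, adjusted p = 0.151). It passed the test without Ezh2 -/- replicate 4, at -3.58 (adjusted p = 0.00633), and in females alone, at -3.62 (adjusted p = 0.0163). Without control replicate 5 it was -0.54 (adjusted p = 0.693), and without the 3 libraries -0.49 (adjusted p = 0.709). The part of other cells in the Meg3 level was not tested.

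**Figure D2:**
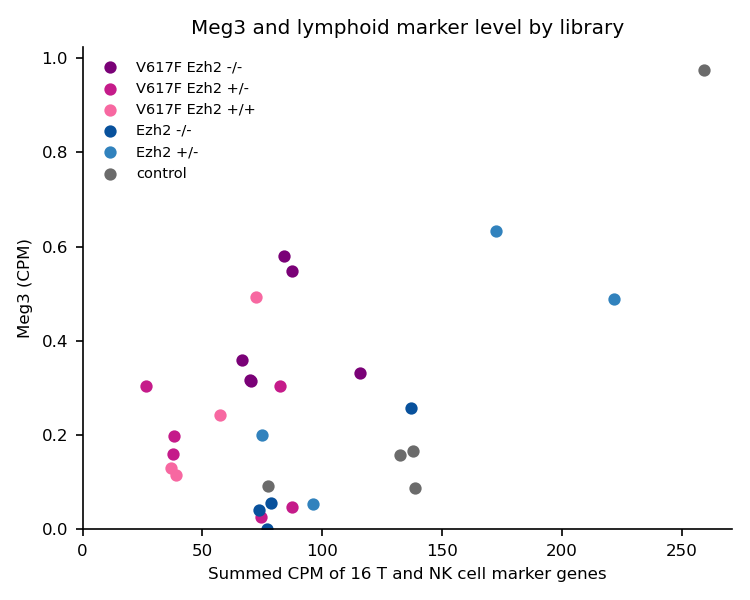
Meg3 level in CPM (y axis) against the summed CPM of 16 T and NK cell marker genes (x axis), 1 point per library, coloured by genotype. Control replicate 5 lies alone at 0.975 CPM and 259 summed CPM, and all 6 V617F Ezh2 -/- libraries lie left of it, with Meg3 between 0.315 and 0.581 CPM.

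Loss of both Ezh2 alleles on the V617F background was the matching comparison. Peg10, Plagl1, Dlk1 and Grb10 rose, and none of the 10 fell. These 4 of 10, with 7 tested, compare with 13% of all tested genes called higher, and 26.6% in either direction. The median log2 fold change of the 7 was 0.88, beside -0.003 over all tested genes. The low-count filter asked for 0.224 CPM in 4 libraries, the size of the smallest group. For Plagl1, Dlk1 and Meg3, V617F Ezh2 -/- was the sole group in which all libraries reached this level. Outside it, Dlk1 reached the level in 1 library, so a difference of Dlk1 is partly built into the tested set. Plagl1 also reached it in 2 Ezh2 -/-, 1 V617F and 3 V617F Ezh2 +/- libraries. Meg3 reached it in 2 Ezh2 +/-, 2 V617F and 2 V617F Ezh2 +/- libraries, among others. Plagl1 and Meg3 therefore met the filter without the V617F Ezh2 -/- group.

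Plagl1 had the largest fitted change of the 7 tested genes here. It reached 1.37 CPM at the lowest, 2.36 at the median and 3.22 at the highest in the 6 V617F Ezh2 -/- libraries, against 0.441, 0.218, 0.109 and 0.205 CPM in V617F libraries. All 6 lay above all of the other 23 libraries of the series, whose highest value was 0.468 CPM. In reads, the 6 held 65 to 127 counts each, and the V617F libraries 5 to 17. The log2 fold change was 3.20 ± 0.56 (SE, edgeR, adjusted p = 0.000168), and it passed in all 17 alternatives at 2.98 to 3.66.

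Dlk1 was lower but moved the same way. It stood at 0.340 CPM at the lowest, 0.440 at the median and 0.559 at the highest in V617F Ezh2 -/- libraries, against 0.207, 0.0242, 0.131 and 0.0912 CPM in V617F libraries. The groups did not overlap, and the counts were 12 to 27 against 1 to 8. The log2 fold change was 2.05 ± 0.61 (SE, edgeR, adjusted p = 0.0170). The call was lost without V617F replicate 2, at 1.71 (adjusted p = 0.0738), and without V617F replicate 4, at 1.99 (adjusted p = 0.0630).

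H19, the maternally expressed noncoding RNA that neighbours Igf2 and hosts miR-675, reached 3 counts in no library outside the V617F Ezh2 -/- group. Their counts were 1, 13, 10, 10, 3 and 10, against 1, 2, 1 and 0 in V617F libraries. In the other 19 libraries of the series no count exceeded 2. The groups overlapped through V617F Ezh2 -/- replicate 1, with its single read. Summed over the group, H19 was 7.53-fold higher than in V617F libraries, with a 95% counting interval of 2.76 to 28.8. The exact permutation test over libraries gave p = 0.0286 (two-sided, the smallest possible being 0.00476), unadjusted, as 1 of 21 such tests on H19, Igf2 and Peg3, of which 4 gave an exact p under 0.05. In the edgeR fit without the low-count filter, which called 18.7% of 18834 genes, H19 had an adjusted p of 0.0321.

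Peg10 and Grb10 rose here as well. Peg10 stood at 22.4 CPM at the lowest, 23.6 at the median and 35.3 at the highest in V617F Ezh2 -/- libraries, against 5.05, 4.72, 2.94 and 5.63 CPM in V617F libraries, without overlap. Its log2 fold change was 2.41 ± 0.22 (SE, edgeR, adjusted p = 2.01e-08). Grb10 stood at 226 CPM at the lowest, 236 at the median and 249 at the highest in V617F Ezh2 -/- libraries, against 154, 176, 182 and 180.4 CPM in V617F libraries, also without overlap. Its log2 fold change was 0.50 ± 0.08 (SE, edgeR, adjusted p = 5.89e-05), and both genes passed in all 17 alternatives.

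Igf2r, Mest and Meg3 did not pass. Igf2r stood at 81.7 CPM at the lowest, 100.4 at the median and 107 at the highest in V617F Ezh2 -/- libraries, against 75.1, 99.6, 113 and 96.1 CPM in V617F libraries. The ranges overlapped almost completely, and the log2 fold change was 0.06 ± 0.11 (SE, edgeR, adjusted p = 0.722). Mest averaged 0.274 ± 0.0822 CPM in V617F Ezh2 -/- (SD, n = 6) and 0.147 ± 0.109 CPM in V617F libraries (SD, n = 4), with overlap and an adjusted p of 0.209 in edgeR. Meg3 averaged 0.409 ± 0.122 CPM in V617F Ezh2 -/- (SD, n = 6) and 0.245 ± 0.175 CPM in V617F libraries (SD, n = 4), again with overlap (edgeR, adjusted p = 0.566).

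**Figure D3:**
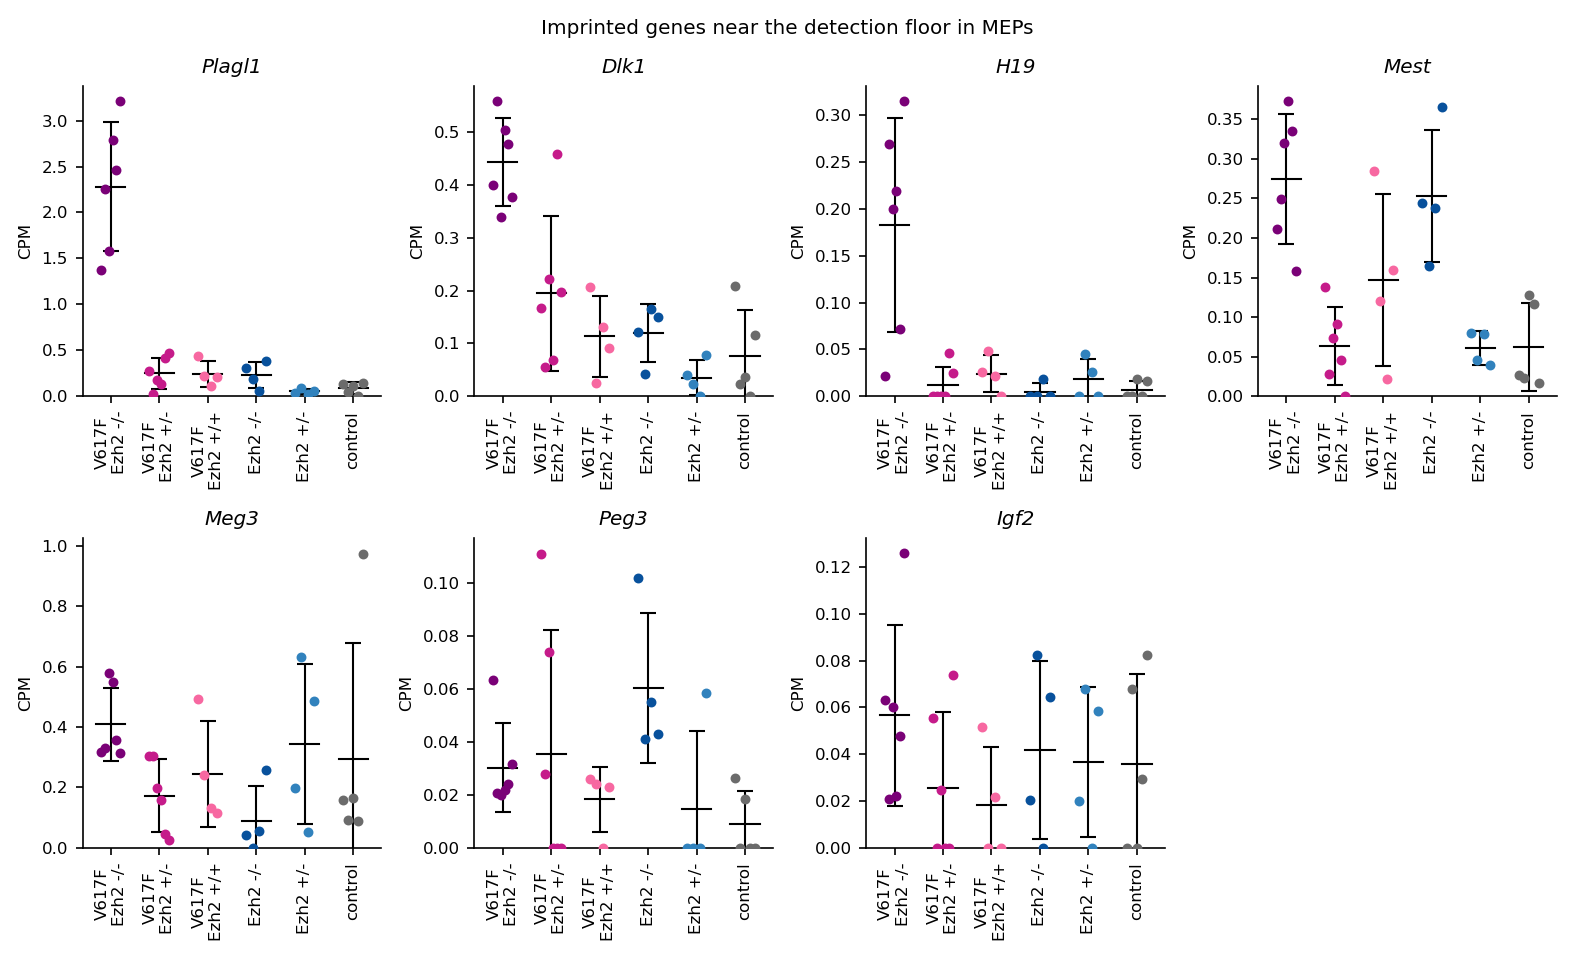
CPM of the other 7 genes (y axes, from 0, a scale of its own per panel) in each of the 29 libraries, by genotype; points are libraries, lines the mean and bars the SD, ended at 0 where they would pass below it. Plagl1 in all 6 V617F Ezh2 -/- libraries lies at 1.37 CPM or more, above all others, and Meg3 shows the single control library at 0.975 CPM.

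Among the cell markers, the B cell list was also higher. Its 10 genes summed to 7.51 to 56.3 CPM in V617F Ezh2 -/- and 3.74 to 10.3 CPM in V617F libraries, and 7 of 10 were higher. The sums overlapped through V617F Ezh2 -/- replicate 1, at 7.51 CPM. That library held Plagl1 at 1.37 CPM, Dlk1 at 0.401 CPM and 1 count of H19. Replicate 5, with the next lowest B cell sum of the group (13.3 CPM), held Plagl1 at 2.46 CPM, Dlk1 at 0.478 CPM and 3 counts of H19. Replicate 3, with the highest sum (56.3 CPM), held Plagl1 at 1.58 CPM, Dlk1 at 0.340 CPM and 10 counts of H19. The erythroid sums did not overlap, at 6189 to 7856 CPM in V617F Ezh2 -/- and 8075 to 10510 CPM in V617F libraries, with 2 of 18 markers lower. The megakaryocyte and platelet sums overlapped, at 873 to 1349 CPM in V617F Ezh2 -/- and 337 to 1524 CPM in V617F libraries. No marker of these 3 lists was at 0 counts in a whole group. Stromal and endothelial sums overlapped, at 122 to 185 CPM in V617F Ezh2 -/- and 45.7 to 195 CPM in V617F libraries, with 3 of 9 tested higher. Of all tested genes, 13% were higher and 13.6% lower. The part of these cells in the rises of Plagl1, Dlk1 and H19 was not tested.

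The interaction of V617F with loss of both Ezh2 alleles asks whether the fold change differed between the backgrounds. It called 19.1% of tested genes and none of the 10 imprinted genes in edgeR or DESeq2. Of the 7 tested imprinted genes, 2 had an unadjusted p under 0.05 in edgeR, as had 5397 of all 13928 tested genes. Peg10 gave -0.73 on the log2 scale, from 2.41 with V617F and 3.14 without it (edgeR, adjusted p = 0.0762). The value fell under the threshold without control replicate 3 (-0.87, adjusted p = 0.0412), Ezh2 -/- replicate 2 (-0.87, 0.0416) or V617F Ezh2 -/- replicate 6 (-0.84, 0.0406). Plagl1 gave 1.90, from 3.20 with V617F and 1.30 without it (edgeR, adjusted p = 0.0999). It passed without control replicate 4 (2.15, adjusted p = 0.0495), Ezh2 -/- replicate 4 (2.41, 0.0484) or V617F replicate 1 (2.36, 0.0425). Meg3 passed without Ezh2 -/- replicate 4, at 4.0 (adjusted p = 0.0237). The fold changes of Ezh2 loss were therefore not shown to differ between backgrounds for any of the 10 genes in the fit to all 29 libraries.

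V617F was then compared within each Ezh2 genotype. Among Ezh2 -/- MEPs, V617F called 41.6% of tested genes, 19.1% higher and 22.5% lower. Plagl1 and Dlk1 rose, and Peg10, Grb10 and Igf2r fell. This comparison shares the V617F Ezh2 -/- libraries with the one above, so the high values of Plagl1 and Dlk1 are the same data set against other libraries.

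Plagl1 stood at 1.37 to 3.22 CPM in V617F Ezh2 -/- libraries, against 0.305, 0.185, 0.0549 and 0.387 CPM in Ezh2 -/- libraries, and its log2 fold change was 3.23 ± 0.58 (SE, edgeR, adjusted p = 0.000378). Dlk1 stood at 0.340 to 0.559 CPM in V617F Ezh2 -/- libraries, against 0.122, 0.0412, 0.165 and 0.15 CPM in Ezh2 -/- libraries, with a log2 fold change of 1.95 ± 0.60 (SE, edgeR, adjusted p = 0.0131). Neither gene's groups overlapped, and both passed in all 17 alternatives. H19 had 1, 13, 10, 10, 3 and 10 counts in V617F Ezh2 -/- libraries, against 0, 0, 1 and 0 in Ezh2 -/- libraries. Its summed level was 35.3-fold higher with a 95% counting interval of 6.04 to 1424, and the exact permutation p was 0.0143 (two-sided, unadjusted). The fit without the low-count filter called 27.8% of genes and gave H19 an adjusted p of 0.00241.

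The 3 genes that fell did so by small amounts. Igf2r stood at 81.7 to 107 CPM in V617F Ezh2 -/- libraries, against 139, 131, 129.6 and 135 CPM in Ezh2 -/- libraries, with no overlap. Its log2 fold change was -0.42 ± 0.11 (SE, edgeR, adjusted p = 0.00570), and it passed in all 17 alternatives. Grb10 stood at 226 to 249 CPM in V617F Ezh2 -/- libraries, against 273 to 337 CPM in Ezh2 -/- libraries, with no overlap and a log2 fold change of -0.25 ± 0.08 (SE, edgeR, adjusted p = 0.0145). It missed the threshold in females alone (adjusted p = 0.0808). Peg10 overlapped between the groups, and its log2 fold change of -0.51 ± 0.20 (SE, edgeR, adjusted p = 0.0484) passed in 4 of 17 alternatives. Its call was lost without Ezh2 -/- replicates 1, 3 or 4, or without V617F Ezh2 -/- replicates 1 to 5, each alone, with values of -0.57 to -0.27 (adjusted p = 0.0704 to 0.237). In females alone it was -0.24 (adjusted p = 0.326).

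Meg3 stood at 0.315 CPM at the lowest, 0.345 at the median and 0.581 at the highest in V617F Ezh2 -/- libraries, against 0.0407, 0, 0.0549 and 0.258 CPM in Ezh2 -/- libraries. The groups did not overlap, yet the log2 fold change of 1.85 ± 0.84 (SE) missed the threshold (edgeR, adjusted p = 0.0775). It passed without Ezh2 -/- replicate 4, at 3.54 (adjusted p = 0.00299), and in fits without the sex term (2.21, adjusted p = 0.0280), to females alone (3.57, 0.00675) or to the compared groups alone (3.58, 0.000503).

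Markers of other cells differed between these groups as well, where 19.1% of all tested genes were higher and 22.5% lower. Megakaryocyte and platelet markers summed to 873 to 1349 CPM in V617F Ezh2 -/- and 116 to 169 CPM in Ezh2 -/- libraries, and all 18 tested were higher. Granulocyte markers summed to 132 to 1338 CPM in V617F Ezh2 -/- and 21.4 to 86.8 CPM in Ezh2 -/- libraries, and all 13 were higher. Stromal and endothelial markers summed to 122 to 185 CPM in V617F Ezh2 -/- and 39.6 to 76.2 CPM in Ezh2 -/- libraries, with 7 of 9 tested higher, and 1 of the 16 was at 0 counts throughout V617F Ezh2 -/- libraries. No megakaryocyte or granulocyte marker was at 0 in either group. Of the 16 stem and multipotent progenitor markers, 13 were higher and 1 lower. Erythroid markers summed to 6189 to 7856 CPM in V617F Ezh2 -/- and 9713 to 10920 CPM in Ezh2 -/- libraries, with no overlap and 9 of 18 lower. Of the monocyte, macrophage and dendritic markers 6 of 15 were lower and 1 higher, and of the T and NK cell markers 5 of 16 were lower and 1 higher. The part of these cells in the 5 changes was not tested.

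**Figure D4:**
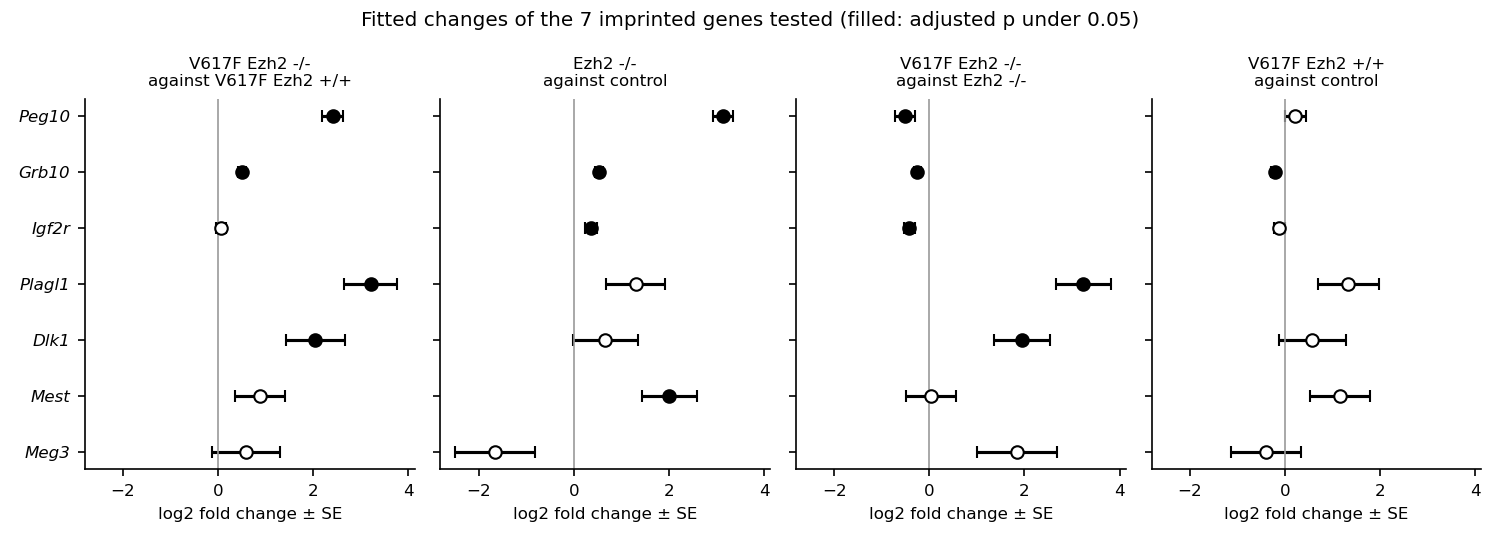
Fitted log2 fold change (x axes, bars ± SE) of the 7 tested genes in 4 comparisons; filled points have an edgeR adjusted p under 0.05. Peg10 lies at 2.41 and 3.14 in both comparisons of Ezh2 -/- with Ezh2 +/+, and Plagl1 at 3.20 and 3.23 in both comparisons that involve V617F Ezh2 -/- libraries on top.

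With Ezh2 intact, V617F called 23.6% of tested genes, 13.9% lower, and Grb10 alone among the imprinted genes. Grb10 stood at 154, 176, 182 and 180.4 CPM in V617F libraries, against 209.9, 222, 226, 209.9 and 159 CPM in control libraries. The groups overlapped through control replicate 5, and the log2 fold change of -0.22 ± 0.08 (SE, edgeR, adjusted p = 0.0490) passed in 7 of 17 alternatives. It was lost without control replicates 1, 2, 3 or 4, or without V617F replicates 1, 2 or 3, each alone, at -0.24 to -0.15 (adjusted p = 0.05 to 0.169). Plagl1 gave 1.33 ± 0.63 on the log2 scale (SE, edgeR, adjusted p = 0.126). Peg10 gave 0.22 ± 0.22 on the log2 scale (SE, edgeR, adjusted p = 0.487).

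Markers of other cells moved between V617F and control libraries too, where 9.73% of all tested genes were higher and 13.9% lower. Megakaryocyte and platelet markers summed to 337 to 1524 CPM in V617F and 146 to 524 CPM in control libraries, with 12 of 18 higher. Granulocyte markers summed to 665 to 1180 CPM in V617F and 48.8 to 329.9 CPM in control libraries, with no overlap and 12 of 13 higher. Monocyte, macrophage and dendritic markers were lower in 10 of 15 and higher in 1, at 92.7 to 179 summed CPM in V617F and 156 to 503 in control libraries. T and NK cell markers were lower in 12 of 16, at 37.1 to 72.1 summed CPM in V617F and 77.3 to 259 in control libraries, without overlap. Their part in the Grb10 difference was not tested.

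In Ezh2 +/- MEPs, V617F called 9.87% of tested genes, 3.35% higher, and Peg10 and Dlk1 passed as higher. Peg10 stood at 4.82 CPM at the lowest, 6.64 at the median and 10.2 at the highest in V617F Ezh2 +/- libraries, against 3.17, 3.91, 3.58 and 5.15 CPM in Ezh2 +/- libraries. The groups overlapped, and the log2 fold change was 0.71 ± 0.23 (SE, edgeR, adjusted p = 0.0448). Dlk1 had 2 to 20 counts in V617F Ezh2 +/- libraries, against 2, 1, 0 and 4 in Ezh2 +/- libraries, with a log2 fold change of 2.46 ± 0.77 (SE, edgeR, adjusted p = 0.0417).

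Neither call was stable. The Peg10 call was lost without Ezh2 +/- replicates 1, 2, 4 or 5, or V617F Ezh2 +/- replicates 1, 5 or 6, each alone, at 0.59 to 0.83 (adjusted p = 0.0509 to 0.178). The Dlk1 call was lost without Ezh2 +/- replicates 1, 2 or 4, or V617F Ezh2 +/- replicates 1, 3, 5 or 6, each alone, at 1.99 to 2.50 (adjusted p = 0.0508 to 0.136). Without the 3 libraries rich in T and NK cell markers, Peg10 gave 0.80 (adjusted p = 0.354) and Dlk1 3.87 (adjusted p = 0.179). Plagl1 gave 2.09 ± 0.71 (SE, edgeR, adjusted p = 0.0633) and passed without V617F Ezh2 +/- replicate 2, at 2.33 (adjusted p = 0.0192). It also passed in DESeq2, at 2.15 (adjusted p = 0.0302), and in edgeR without the sex term, at 2.15 (adjusted p = 0.0277).

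The same marker lists differed between V617F Ezh2 +/- and Ezh2 +/- libraries, where 3.35% of all tested genes were higher and 6.51% lower. Megakaryocyte and platelet markers were higher in 9 of 18, at 208 to 1581 summed CPM in V617F Ezh2 +/- and 163 to 453 in Ezh2 +/- libraries. Granulocyte markers were higher in 10 of 13, at 344 to 1789 summed CPM in V617F Ezh2 +/- and 37.5 to 331 in Ezh2 +/- libraries. T and NK cell markers were lower in 13 of 16, at 26.5 to 87.3 summed CPM in V617F Ezh2 +/- and 74.9 to 222 in Ezh2 +/- libraries. Monocyte, macrophage and dendritic markers were lower in 11 of 15 and higher in 1, at 57.4 to 194 summed CPM in V617F Ezh2 +/- and 96.2 to 447 in Ezh2 +/- libraries. Erythroid markers were lower in 6 of 18, with sums of 6804 to 12100 CPM in V617F Ezh2 +/- and 8992 to 11920 CPM in Ezh2 +/- libraries. Their part in the Peg10 and Dlk1 differences was not tested.

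Loss of a single Ezh2 allele called few genes of any kind. Without V617F, Ezh2 +/- against control called 0.0144% of tested genes and none of the 10, by edgeR or DESeq2, and none had an unadjusted p under 0.05. Peg10 averaged 3.95 ± 0.855 CPM in Ezh2 +/- (SD, n = 4) and 3.79 ± 1.20 CPM in control libraries (SD, n = 5). With V617F, Ezh2 +/- against Ezh2 +/+ called 0.00718% of tested genes and none of the 10 by either tool. Peg10 averaged 7.26 ± 2.13 CPM in V617F Ezh2 +/- (SD, n = 6) and 4.58 ± 1.16 CPM in V617F libraries (SD, n = 4). Its log2 fold change of 0.60 ± 0.21 (SE) had an unadjusted p under 0.05, as had 881 of 13928 tested genes, and an edgeR adjusted p of 0.553. The interaction of V617F with loss of a single allele called 0% of tested genes in edgeR, 3 genes in DESeq2 and none of the 10 by either, with 937 genes at an unadjusted p under 0.05 and none of them among the 10.

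Over the 6 genotypes, mean Peg10 was highest in Ezh2 -/- (33.4 ± 6.33 CPM, n = 4), then in V617F Ezh2 -/- (25.5 ± 4.86, n = 6), V617F Ezh2 +/- (7.26 ± 2.13, n = 6), V617F (4.58 ± 1.16, n = 4), Ezh2 +/- (3.95 ± 0.855, n = 4) and control libraries (3.79 ± 1.20 CPM, n = 5; SDs). Neighbours in this order overlapped, except that the lowest V617F Ezh2 -/- library was above the highest V617F Ezh2 +/- library. Igf2, the growth factor itself, had 14 counts in all V617F Ezh2 -/- libraries, 6 in V617F Ezh2 +/-, 3 in V617F, 8 in Ezh2 -/-, 7 in Ezh2 +/- and 9 in control libraries. No library held more than 5 Igf2 reads, and no difference was detectable at this depth. Peg3, a zinc finger protein expressed from the paternal allele, had 5, 2, 3 and 2 counts in Ezh2 -/- libraries, against 1, 0, 1, 0 and 0 in control libraries. These did not overlap, and the exact permutation p was 0.00794 (two-sided, unadjusted, the smallest possible). The edgeR fit without the low-count filter gave Peg3 an adjusted p of 0.0986, and Peg3 had 8 counts over the 6 V617F Ezh2 -/- libraries, against 3 over the 4 V617F libraries (exact permutation p = 0.371). Against the 12 counts of the 4 Ezh2 -/- libraries, those 8 gave a ratio of summed levels of 0.501 with a 95% counting interval of 0.178 to 1.33. The exact permutation p there was 0.0476 (two-sided, unadjusted), and the edgeR fit without the low-count filter gave an adjusted p of 0.279.

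Imprinted genes that lie beside these 10 in their clusters gave 21 tested genes. In Ezh2 -/- against control 6 rose and 2 fell, and in V617F Ezh2 -/- against V617F 4 rose and 1 fell. These were 38.1% and 23.8% of the list, where 23.7% and 26.6% of all tested genes were called. Their median log2 fold changes were 0.05 and 0.13. Without the 3 libraries rich in T and NK cell markers, 5 of 22 tested rose and 1 fell in Ezh2 -/- against control, 27.3% of the list, beside 15.6% of all genes tested. Sgce, which encodes epsilon-sarcoglycan and lies head to head with Peg10, averaged 7.69 ± 0.481 CPM in Ezh2 -/- (n = 4) and 2.25 ± 0.968 CPM in control libraries (SDs, n = 5; log2 fold change 1.74 ± 0.37, edgeR adjusted p = 0.00115). Against the V617F group, Sgce averaged 13.1 ± 1.39 CPM in V617F Ezh2 -/- (n = 6) and 5.54 ± 3.95 CPM in V617F libraries (SDs, n = 4; 1.13 ± 0.36, edgeR adjusted p = 0.0237). Ascl2, a transcription factor of the trophoblast in the H19 and Igf2 region, rose by 1.45 ± 0.28 in V617F Ezh2 -/- against V617F and 2.26 ± 0.26 in Ezh2 -/- against control on the log2 scale (SE, edgeR, adjusted p = 0.000663 and 3.77e-07). Kcnq1, a potassium channel of the same region, rose by 2.27 ± 0.53 in V617F Ezh2 -/- against V617F and 1.34 ± 0.45 in Ezh2 -/- against control (SE, edgeR, adjusted p = 0.00327 and 0.0317). Its levels were low, at 0.279 ± 0.146 CPM in V617F Ezh2 -/- (n = 6) and 0.0579 ± 0.0267 CPM in V617F libraries (SDs, n = 4). The V617F libraries were themselves low in Kcnq1, which fell in V617F against control (-1.54 ± 0.55, SE, edgeR adjusted p = 0.0456). The Kcnq1 value in Ezh2 -/- against control was 1.20 without the 3 libraries (adjusted p = 0.112), and Sgce, Ascl2 and Slc22a3 still passed. Slc22a3, an organic cation transporter beside Igf2r, went the other way: it averaged 87.7 ± 16.6 CPM in Ezh2 -/- (n = 4) and 145 ± 13.3 CPM in control libraries (SDs, n = 5; -0.75 ± 0.18, edgeR adjusted p = 0.00367).

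Imprinted genes of other clusters gave 23 tested genes. In Ezh2 -/- against control 7 rose and 4 fell, with a median log2 fold change of 0.07, and in V617F Ezh2 -/- against V617F 7 rose and 2 fell, with a median of 0.05. These were 47.8% and 39.1% of the list, beside 23.7% and 26.6% of all tested genes. In Ezh2 -/- against control, 7 of 24 tested rose and 3 fell when the 3 libraries were left out, 41.7% of the list beside 15.6% of all genes tested. Snrpn, a splicing protein gene expressed from the paternal allele, averaged 1.5 ± 0.61 CPM in Ezh2 -/- (n = 4) and 0.0340 ± 0.0423 CPM in control libraries (SDs, n = 5; 5.22 ± 0.66, edgeR adjusted p = 1.55e-06). Snurf, encoded by the same transcript, has counts identical to Snrpn in every library, so the same reads stand in both. Each is counted among the 23 tested genes and the 7 that rose in each comparison, so these counts and shares hold the same signal more than once. Sfmbt2, a Polycomb group gene, averaged 4.23 ± 0.430 CPM in Ezh2 -/- (n = 4) and 0.619 ± 0.392 CPM in control libraries (SDs, n = 5; 2.74 ± 0.38, edgeR adjusted p = 7.21e-06). Gab1, a signalling adaptor, rose by 0.37 ± 0.11 in V617F Ezh2 -/- against V617F and 0.73 ± 0.11 in Ezh2 -/- against control (SE, edgeR, adjusted p = 0.0131 and 1.34e-05).

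Of 11 tested IGF receptors, binding proteins and adaptors, 1 rose and 2 fell in Ezh2 -/- against control, and 5 rose and none fell in V617F Ezh2 -/- against V617F. These were 27.3% and 45.5% of the list, beside 23.7% and 26.6% of all tested genes, with median log2 fold changes of -0.13 and 0.38. Without the 3 libraries, 1 rose and none fell in Ezh2 -/- against control, and the median was 0.21. This was 9.09% of the list, beside 15.6% of all genes tested. Igf2bp3, an RNA-binding protein of the fetal period, averaged 1.32 ± 0.524 CPM in Ezh2 -/- (n = 4) and 0.0161 ± 0.0157 CPM in control libraries (SDs, n = 5), and rose in both Ezh2 -/- comparisons (edgeR, adjusted p = 7.34e-08 and 8.97e-07). Igf1r, the IGF1 receptor, averaged 187 ± 15.4 CPM in V617F Ezh2 -/- (n = 6) and 128 ± 12 CPM in V617F libraries (SDs, n = 4; 0.53 ± 0.14, edgeR adjusted p = 0.00677). Insr, the insulin receptor, also rose in V617F Ezh2 -/- against V617F, at 61.7 ± 4.97 CPM in V617F Ezh2 -/- (n = 6) and 46.7 ± 5.76 CPM in V617F libraries (SDs, n = 4; 0.38 ± 0.12, edgeR adjusted p = 0.0207). Irs1, its docking protein, averaged 0.443 ± 0.163 CPM in V617F Ezh2 -/- (n = 6) and 0.139 ± 0.0883 CPM in V617F libraries (SDs, n = 4; 1.69 ± 0.42, edgeR adjusted p = 0.00491).

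Of 12 tested NOTCH receptors, ligands and targets, the pathway to which Dlk1 is related, 3 rose in Ezh2 -/- against control and 4 in V617F Ezh2 -/- against V617F, and none fell. These were 25% and 33.3% of the list, beside 11.5% and 13% of all tested genes called higher, and the list's median log2 fold changes were -0.20 and 0.49. The counts in Ezh2 -/- against control were also 3 and none with the 3 libraries left out, beside 9.5% of all genes called higher. Hey1, a NOTCH target, averaged 2.86 ± 0.147 CPM in Ezh2 -/- (n = 4) and 1.86 ± 0.256 CPM in control libraries (SDs, n = 5; 0.64 ± 0.20, edgeR adjusted p = 0.0195). Hey2 and Nrarp, also NOTCH targets, rose by 1.79 ± 0.30 and 0.77 ± 0.13 there (edgeR, adjusted p = 7.38e-05 and 6.26e-05). The ligand Dll1 rose in V617F Ezh2 -/- against V617F, at 0.967 ± 0.555 CPM in V617F Ezh2 -/- (n = 6) and 0.188 ± 0.0977 CPM in V617F libraries (SDs, n = 4; 2.29 ± 0.53, edgeR adjusted p = 0.00285). The V617F libraries were themselves low in Dll1: it fell in V617F against control, at 0.188 ± 0.0977 CPM in V617F (n = 4) and 0.846 ± 0.424 CPM in control libraries (SDs, n = 5; -2.21 ± 0.54, edgeR adjusted p = 0.00425).

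Of 14 tested genes that keep imprints and DNA methylation in place, 1 fell and none rose in Ezh2 -/- against control, and 1 rose and none fell in V617F Ezh2 -/- against V617F, each 7.14% of the list. Of all tested genes, 23.7% and 26.6% were called in these comparisons. With the 3 libraries left out, 2 fell and none rose in Ezh2 -/- against control, 14.3% of the list beside 15.6% of all genes tested. Ehmt2, a histone methyltransferase, averaged 228 ± 8.80 CPM in Ezh2 -/- (n = 4) and 265 ± 16.8 CPM in control libraries (SDs, n = 5; -0.19 ± 0.05, edgeR adjusted p = 0.00637). Dnmt3b, a de novo DNA methyltransferase, averaged 70.3 ± 3.53 CPM in V617F Ezh2 -/- (n = 6) and 55.1 ± 5.62 CPM in V617F libraries (SDs, n = 4; 0.34 ± 0.08, edgeR adjusted p = 0.00331). Of 12 PRC2 genes, Ezh2 included, 2 rose and 1 fell in Ezh2 -/- against control, with or without the 3 libraries, and 4 rose and 5 fell in V617F Ezh2 -/- against V617F, which is 25% and 75% of the list. Beside these stand 23.7% and 26.6% of all tested genes. Ezh2, whose fall follows from the genotype, is among those that fell in both comparisons. Epop, a PRC2-associated protein, rose by 1.74 ± 0.17 in V617F Ezh2 -/- against V617F and 1.55 ± 0.16 in Ezh2 -/- against control (SE, edgeR, adjusted p = 4.38e-08 and 7.12e-08). Phf19, a PRC2 cofactor, rose by 0.46 ± 0.10 and 0.65 ± 0.11 in the same comparisons (SE, edgeR, adjusted p = 0.00236 and 5.15e-05).

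The genes whose pattern over the 6 genotype means was most like that of each called gene were found by the root mean square difference of centred log2 CPM. For Peg10 they were Khdrbs3 (0.174), Pik3c2a (0.227) and Kif21a (0.277) of 9857 genes searched. Khdrbs3 averaged 36.8 CPM in V617F Ezh2 -/-, 9.97 in V617F Ezh2 +/-, 8.99 in V617F, 47.9 in Ezh2 -/-, 6.33 in Ezh2 +/- and 6.42 in control libraries. For Plagl1 they were Thbs1 (0.518), Arhgap29 (0.580) and Socs2 (0.605), and Thbs1, a thrombospondin of platelets, averaged 25.9 CPM in V617F Ezh2 -/- libraries and 8.86 CPM or less in every other group. For Dlk1 they were Tmod1 (0.219), Vash1 (0.233) and Prkg1 (0.248). For Mest they were Plxnb2 (0.194), Lix1l (0.229) and Fzd6 (0.236). Grb10 was most like Acot2 (0.0542), Otub2 (0.0570) and Ppip5k1 (0.0581), and Igf2r most like Bbc3 (0.0273), Slc43a1 (0.0383) and Slc7a4 (0.0389). The likeness is a distance on a log2 scale with a prior count of 2, which compresses the range of the low genes Plagl1, Dlk1 and Mest.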

How the data were processed

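RNA was measured in 29 libraries of sorted MEPs, prepared by a standard Illumina protocol per the labels' protocols. Reads were aligned with STAR to mm9, per the submitters' processing notes, and the sources used here give no STAR version, annotation, counting program or strand setting. The authors deposited whole-number counts per Entrez gene and a gene length, which is a value of its own kind and was used to give CPM per kb. The RefSeq table (GRCm38.p6) named 18772 of 18834 genes, and the rest, with 0.884 to 2.68% of the counts per library, were kept in the model. edgeR 4.0.16 in R 4.3.3 filtered genes with filterByExpr (minimum count 10, minimum total 15), scaled by TMM (factors 0.950 to 1.09) and fitted 1 robust quasi-likelihood model with 6 groups and the labelled sex (22 residual degrees of freedom). There were 9 comparisons. Calls have an adjusted p under 0.05, and the SE is the absolute log2 fold change over the root of F. Genes under the filter got an exact permutation test over libraries. Alternatives were DESeq2 1.42.0, RLE scaling, CPM on raw totals, no filter, no sex term, females alone, the compared groups alone, a replicate block, each library left out in turn, and, added after seeing the data, leaving out the 3 libraries highest in T and NK cell markers among those without V617F. The fit was tested on simulated data. No 2 libraries of a group were duplicates (lowest chi-square per degree of freedom 4.56). The 10 genes and all lists were chosen with earlier results of these data known. Genes named beside the 10 are the up to 4 of each list with the lowest adjusted p in either Ezh2 -/- comparison, the 3 most alike in pattern (mean log2 CPM of at least 2), Ezh2, and overlapping genes with values in the files, added after seeing the annotation. Promoters and overlaps come from GRCm38, and no coordinate was read from the mm9 alignment.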

Additional observations from a re-analysis of the deposited data

Results flagged for a closer look

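Of 60 combinations of gene and genotype examined, 8 held a library whose gap to its nearest neighbour was large for its group. The rule flags about 1 in 20 when values are normally spread. That rate does not hold for genes with a few whole reads per library, so the 8 are not set against it. Meg3 in control replicate 5 stood at 0.975 CPM (59 counts), with the next control library at 0.165 CPM. Peg10 in V617F Ezh2 -/- replicate 6 stood at 35.3 CPM, with the next library at 25.1 CPM. Grb10 in Ezh2 -/- replicate 4 stood at 336.9 CPM, with the next at 280.0 CPM, and Grb10 in control replicate 5 at 158.9 CPM, below the next at 209.9 CPM. The other 4 rest on 0 to 3 reads: H19 in Ezh2 -/- replicate 3 at 0.0183 CPM, Peg3 in V617F Ezh2 -/- replicate 1 at 0.0633 CPM, Peg3 in Ezh2 +/- replicate 5 at 0.0585 CPM, and Peg3 in V617F replicate 3 at 0 CPM.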

How the results depend on the processing

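Peg10 and Grb10 in both Ezh2 -/- comparisons, Plagl1 in V617F Ezh2 -/- against V617F, and Plagl1, Dlk1 and Igf2r in V617F Ezh2 -/- against Ezh2 -/- passed in all 17 alternatives. Counts of called genes among the 10 moved as follows. Ezh2 -/- against control gave 2 without the 3 libraries rich in T and NK cell markers, against 4 with them. V617F against none in Ezh2 +/+ (1) gave 0 with no filter, in females alone and in the compared groups alone, and 0 to 1 with single libraries left out. V617F against none in Ezh2 +/- (2) gave 1 with no filter or the replicate block, 0 in females alone, in the compared groups alone or without the 3 libraries, and 0 to 3 with single libraries left out. The interaction with Ezh2 -/- (0) gave 0 to 2 with single libraries left out. Log2 fold changes of uncalled genes that turned direction were small or noisy. Without the 3 libraries, Meg3 gave -0.22 in Ezh2 +/- against control, 1.10 for V617F in Ezh2 +/+ and 0.92 in Ezh2 +/-, while the interactions gave 0.031 for Grb10 with Ezh2 -/- and 0.026 for Igf2r with Ezh2 +/-. Mest gave -0.020 without the sex term and -0.94 in females in Ezh2 +/- against control, and 0.052 and 0.56 for V617F in Ezh2 +/-. Plagl1 in V617F Ezh2 +/- against V617F gave -0.18 in females, -0.32 with the replicate block and -0.18 in the compared groups alone. The Grb10 interaction with Ezh2 -/- gave 0.0063 in females and 0.039 with the block. With single libraries left out, the ranges were -0.089 to 0.039 (Grb10, interaction with Ezh2 -/-), -0.12 to 0.064 (Igf2r, interaction with Ezh2 +/-), -0.11 to 0.021 (Igf2r), -0.13 to 1.37 (Meg3) and -0.24 to 0.53 (Mest) in Ezh2 +/- against control, -0.036 to 0.12 (Igf2r) in V617F Ezh2 -/- against V617F, -0.88 to 0.83 (Meg3) for V617F in Ezh2 +/+, -0.45 to 0.15 (Mest) for V617F in Ezh2 +/-, -0.19 to 0.35 (Mest) for V617F in Ezh2 -/-, and -0.23 to 0.50 (Plagl1) in V617F Ezh2 +/- against V617F. The cause was not tested. Mean Grb10 in V617F Ezh2 -/- libraries was 248 CPM on raw totals, against 237 CPM with TMM.

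Counts over all genes moved by more than 1.5 times in females alone to 1681, against 3307 (Ezh2 -/- against control), 2268, against 3709 (V617F Ezh2 -/- against V617F), 1875, against 3288 (V617F in Ezh2 +/+) and 128, against 2663 (interaction with Ezh2 -/-). The interaction gave 1623 with the block, 1199 without the 3 libraries and 297 to 4633 with single libraries left out. V617F in Ezh2 +/- (1374) gave 2170 without the sex term, 313 in the compared groups alone, 94 without the 3 libraries and 706 to 1893 with single libraries left out. Ezh2 -/- against control gave 2096 without Ezh2 -/- replicate 3, V617F Ezh2 -/- against V617F gave 1954 without V617F replicate 4, and V617F in Ezh2 -/- (5795) gave 3197 without Ezh2 -/- replicate 3. V617F Ezh2 +/- against V617F (1) gave 30 by DESeq2, 20 in females, 2 in the compared groups and up to 37 with a library left out, and Ezh2 +/- against control (2) gave 0 to 4. Of 28 pairs of libraries with a shared replicate number, 13 had a correlation over 0.1 (range -0.44 to 0.80), and no comparison had all pairs over it. The numbers were therefore not used as pairs in the main fit. In Ezh2 +/- against control, 3 of 4 pairs exceeded 0.1, with replicate 5 at 0.80, and 3 of 4 did in V617F Ezh2 +/- against V617F. Whether such libraries share a batch or origin was not tested. Depth limits Igf2, H19 and Peg3 to a few reads per library, and the groups with V617F and Ezh2 loss are all female, so sex is estimated from the other 4 groups.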
